A study of Homo sapiens with 8 samples.

Results

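The genes described here are the 8 human genes of creatine synthesis, transport and phosphorylation: GATM, GAMT, SLC6A8, CKB, CKM, CKMT1A, CKMT1B and CKMT2, all found by symbol among 18902 genes of a deposited expression table. They were chosen by name, with the steep difference of CKB between Flag-OGT and control libraries already known, so differences between those libraries are given for them as a description, without a test. RNA-seq covered the cell lines MHCC-97H and MHCC-97L, human hepatocellular carcinoma lines of high and low metastatic potential, as H and L in their names stand for. MHCC-97H Flag-OGT and MHCC-97L Flag-OGT cells stably carried full-length wild-type human OGT, the O-GlcNAc transferase, with a triple Flag tag at its C-terminal end. It was delivered in a lentiviral vector with luciferase and geneticin resistance, and the cells were selected with neomycin. MHCC-97H and MHCC-97L controls carry no genotype label. The labels do not say whether controls held an empty vector, which promoter drove the introduced gene or whether the selected cells were 1 clone. Each of the 4 groups had 2 libraries, from cells grown in DMEM with 10% fetal calf serum. The labels do not say whether these came from separate cultures, so p-values measure only the spread between libraries, which may be technical. Levels are FPKM, fragment numbers scaled by transcript length and by library size, which can be compared between genes; the number of reads behind them is not known. Differences are on the log2(FPKM + 1) scale, which understates those of low genes.

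Creatine is made in a pair of steps. GATM (arginine:glycine amidinotransferase) joins arginine and glycine into guanidinoacetate, and GAMT methylates this to creatine with S-adenosylmethionine. SLC6A8 imports creatine across the plasma membrane, and creatine kinases reversibly pass a phosphate from ATP to it, which buffers ATP and carries it between mitochondria and sites of use. CKB is the cytosolic brain-type kinase and CKM its muscle counterpart. CKMT1A and CKMT1B encode the ubiquitous mitochondrial kinase, and CKMT2 the sarcomeric mitochondrial one. The liver is known as a site of creatine synthesis with little creatine kinase.

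The Flag-OGT libraries of both lines stood far from the controls. Over 13553 tested genes, r was 0.725 to 0.753 between Flag-OGT and control libraries of 1 line, against 0.957 to 0.963 between lines within a state and 0.997 to 0.999 between replicates. Between Flag-OGT libraries of 1 line and controls of the other line, r was 0.722 to 0.741. The Flag-OGT libraries were thus hardly closer to the controls of their own line. Genes are not independent replicates. OGT was at 59.04 and 58.38 FPKM in MHCC-97H Flag-OGT, against 32.53 and 34.16 FPKM in MHCC-97H controls, and at 50.95 and 54.54 FPKM in MHCC-97L Flag-OGT, against 45.73 and 43.9 FPKM in MHCC-97L controls. The labelled tissue is liver, and the 10 hepatocyte markers summed to 1.21 to 1.5 FPKM in MHCC-97H Flag-OGT and 1.77 to 3.88 FPKM in MHCC-97L Flag-OGT, against 58.87 to 59.08 FPKM in MHCC-97H controls and 198.8 to 202.4 FPKM in MHCC-97L controls. Of these markers, APOA1 went the other way in MHCC-97H, at 0.54 and 0.71 FPKM with Flag-OGT, against 0.39 and 0.33 FPKM in controls. In MHCC-97L Flag-OGT it was at 2.1 and 0.78 FPKM, against 4.65 and 4.62 FPKM in controls. ALB was at most 0.12 FPKM, APOH at most 0.08 FPKM and HNF4A at most 0.04 FPKM in any Flag-OGT library, and TTR was listed at 0 in all 4. That these libraries came from the labelled lines was not tested, and the introduced gene and whatever else sets these libraries apart cannot be told apart. In bulk RNA, fewer cells of a type and less RNA per cell cannot be told apart either.

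Promoter sequence is shown for CKB, high with Flag-OGT, GATM, nearly absent with it, and SLC6A8, lower with it. CKMT1A and CKMT1B, which differed more than SLC6A8, are not shown. RefSeq tables (GRCh38.p14, not the hg19 of the submitters' notes) held entries for 7 of the 8 genes. Each line gives the 250 bases before the annotated start, 5′ to 3′ on the gene's strand. Capitals mark matches, on either strand, to TATAAA (the TATA box), CCAAT (the CCAAT box) and GGGAGG, a G-rich hexamer of the kind repeated in the published motif of ZNF263, the zinc-finger protein studied in this series; matches of GGGAGG may overlap one another.
CKB, chr14:103522831-103523080, minus strand: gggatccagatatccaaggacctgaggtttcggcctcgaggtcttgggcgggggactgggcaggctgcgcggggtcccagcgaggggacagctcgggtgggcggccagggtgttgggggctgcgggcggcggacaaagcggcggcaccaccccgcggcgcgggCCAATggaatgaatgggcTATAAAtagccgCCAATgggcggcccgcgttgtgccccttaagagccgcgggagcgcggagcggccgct
GATM, chr15:45378545-45378794, minus strand: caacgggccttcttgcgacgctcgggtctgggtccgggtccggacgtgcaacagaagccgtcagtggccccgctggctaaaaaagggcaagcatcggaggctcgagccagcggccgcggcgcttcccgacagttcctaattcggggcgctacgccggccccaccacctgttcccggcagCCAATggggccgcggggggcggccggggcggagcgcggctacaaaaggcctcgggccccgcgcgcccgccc
SLC6A8, chrX:153687676-153687925, plus strand: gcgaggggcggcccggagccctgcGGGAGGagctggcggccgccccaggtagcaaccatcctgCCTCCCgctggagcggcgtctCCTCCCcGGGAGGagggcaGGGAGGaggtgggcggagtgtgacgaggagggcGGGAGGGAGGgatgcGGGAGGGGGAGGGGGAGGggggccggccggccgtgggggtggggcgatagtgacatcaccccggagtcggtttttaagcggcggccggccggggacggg
The CKB window held TATAAA 1 time and CCAAT 2 times, the GATM window CCAAT 1 time, and the SLC6A8 window GGGAGG 10 times. Among windows not shown, GGGAGG matched 3 times for CKM and 1 time for CKMT2. It matched 0 to 2 times in the CKMT1A windows and 0 times in those of CKMT1B. CCAAT matched 1 time for CKM, 1 time for CKMT2, 0 to 2 times for CKMT1A and 0 times for CKMT1B. TATAAA matched 1 time for CKMT2 and 0 times in the other windows not shown. Of 35116 such windows in the table, 10.7% held TATAAA, 32.0% CCAAT and 45.6% GGGAGG at least 1 time, which gives no background for repeated matches. These matches are letters in a window, and binding was not measured here.

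GATM, which carries out the first and regulated step of synthesis, was nearly absent with Flag-OGT in both lines, and among controls it was high in one line only. It was at 0.02 and 0.02 FPKM in MHCC-97H Flag-OGT, against 0.96 and 1.36 FPKM in MHCC-97H controls. In MHCC-97L Flag-OGT it was at 0.04 and 0.06 FPKM, against 18.01 and 18.13 FPKM in MHCC-97L controls. The 4 groups did not overlap, and the order from high to low was MHCC-97L control, MHCC-97H control, MHCC-97L Flag-OGT and MHCC-97H Flag-OGT. The differences were -1.08 ± 0.09 (SE) in MHCC-97H and -4.18 ± 0.09 in MHCC-97L; with a pseudocount of 0.1 in place of 1 they were -3.37 and -6.92. The values with Flag-OGT are near the smallest step of the table, which is rounded to 2 decimals, so the MHCC-97L ratio of 361 between control and Flag-OGT means is imprecise. An annotated antisense RNA overlaps GATM, and the sources used here do not say whether counting used strand.

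GAMT, the methyltransferase of the second step, differed in opposite directions in the lines. It was at 40.8 and 37.93 FPKM in MHCC-97H Flag-OGT, against 20.57 and 16.0 FPKM in MHCC-97H controls, a 2.15-fold higher mean (log2 difference 1.07 ± 0.10). In MHCC-97L Flag-OGT it was at 21.86 and 23.01 FPKM, against 38.44 and 41.08 FPKM in MHCC-97L controls, a mean 0.564 times that of the controls (log2 difference -0.80 ± 0.10). MHCC-97H Flag-OGT and MHCC-97L control libraries overlapped and held the highest levels, and MHCC-97L Flag-OGT and MHCC-97H control libraries were close to each other without overlap. Since GAMT stayed between 16.0 and 41.08 FPKM in every library while GATM spanned 0.02 to 18.13 FPKM, the ratio of GATM to GAMT ran from 0.00049 to 0.00261 in the Flag-OGT libraries, against 0.0467 and 0.085 in MHCC-97H controls and 0.469 and 0.441 in MHCC-97L controls. No library had as much GATM as GAMT.

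SLC6A8, the creatine importer, was the member with the highest level in each control library, and it was lower with Flag-OGT in both lines. It was at 51.64 and 53.76 FPKM in MHCC-97H Flag-OGT, against 112.07 and 105.68 FPKM in MHCC-97H controls, a log2 difference of -1.03 ± 0.06. In MHCC-97L Flag-OGT it was at 66.26 and 61.34 FPKM, against 128.21 and 124.1 FPKM in MHCC-97L controls, a log2 difference of -0.97 ± 0.06. Flag-OGT means were thus 0.484 and 0.506 times the control means, and no groups overlapped. SLC6A8 has near-identical pseudogene copies on another chromosome that could take or give reads. PNCK, which overlaps it on the opposite strand, was between 0.45 and 2.24 FPKM in every library.

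**Figure D1:**
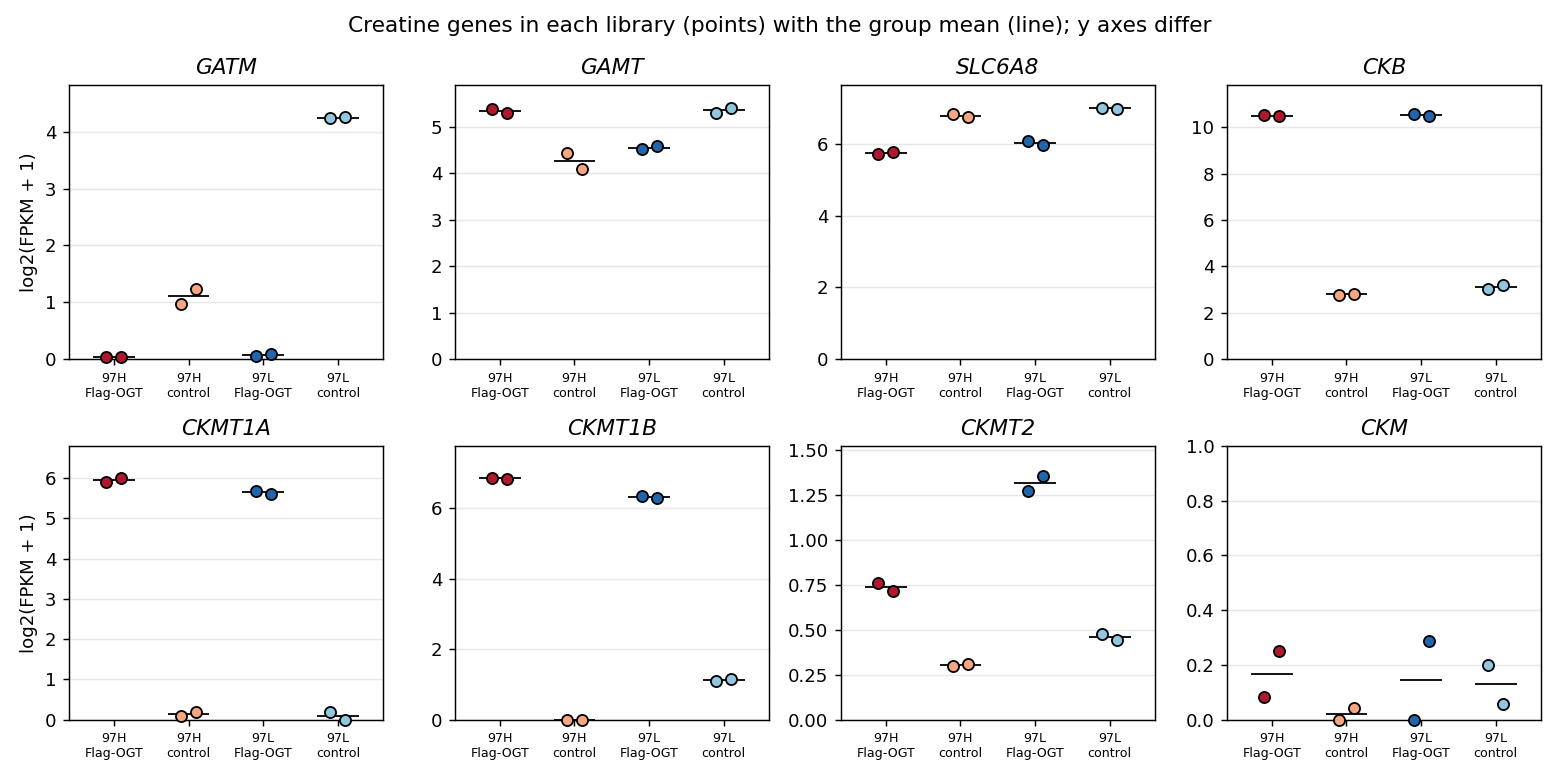
Levels of the 8 creatine genes in each library, as log2(FPKM + 1) (y axis, own scale per gene), for Flag-OGT and control libraries of MHCC-97H and MHCC-97L. Points are libraries and lines are group means. GATM is high in MHCC-97L controls alone (18.01 and 18.13 FPKM), GAMT differs in opposite directions in the lines, and CKB, CKMT1A and CKMT1B are high in all 4 Flag-OGT libraries.

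CKB, the cytosolic brain-type kinase, was by far the most abundant creatine gene with Flag-OGT in both lines, and low in controls. It was at 1460.58 and 1433.12 FPKM in MHCC-97H Flag-OGT, against 5.85 and 6.02 FPKM in MHCC-97H controls, a 244-fold higher mean (log2 difference 7.71 ± 0.06). In MHCC-97L Flag-OGT it was at 1510.5 and 1434.0 FPKM, against 7.2 and 8.14 FPKM in MHCC-97L controls, a 192-fold higher mean (log2 difference 7.41 ± 0.06). Its rank by FPKM among 18902 genes was 55 in both MHCC-97H Flag-OGT libraries and 71 and 75 in MHCC-97L Flag-OGT, against 7392 and 7404 in MHCC-97H controls and 6967 and 6533 in MHCC-97L controls. CKB was thus among the most abundant transcripts with Flag-OGT, and its levels in MHCC-97H Flag-OGT and MHCC-97L Flag-OGT overlapped.

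The ubiquitous mitochondrial kinase genes CKMT1A and CKMT1B were close to absent in controls and high with Flag-OGT. CKMT1A was at 58.43 and 62.83 FPKM in MHCC-97H Flag-OGT and at 50.45 and 47.73 FPKM in MHCC-97L Flag-OGT, against 0.07 and 0.14 FPKM in MHCC-97H controls and 0.15 and 0.0 FPKM in MHCC-97L controls. CKMT1B was at 114.52 and 112.77 FPKM in MHCC-97H Flag-OGT and at 79.56 and 77.27 FPKM in MHCC-97L Flag-OGT, against a listed value of 0 in both MHCC-97H controls and 1.15 and 1.23 FPKM in MHCC-97L controls. The split between these genes is uncertain. Their GENCODE v29 transcripts CKMT1B-201 and CKMT1A-204, of 1779 bases each, differ at 4 positions, and 86.2% of the windows of 100 bases in CKMT1A-204 occur unchanged in CKMT1B-201. Their sum does not depend on how shared reads were divided between them. Whether such reads were dropped or counted for both genes is not known, and either would alter the sum. The sum was 172.95 and 175.6 FPKM in MHCC-97H Flag-OGT, against 0.07 and 0.14 FPKM in MHCC-97H controls. In MHCC-97L Flag-OGT it was 130.01 and 125.0 FPKM, against 1.3 and 1.23 FPKM in MHCC-97L controls. The log2 difference of the sum was 7.31 ± 0.06 in MHCC-97H and 5.83 ± 0.06 in MHCC-97L. Whether CKB or this pair differed more depends on the scale: by ratio of means the pair was 1660-fold higher with Flag-OGT in MHCC-97H and 101-fold in MHCC-97L. With a pseudocount of 0.1, CKMT1A and CKMT1B differed by 8.23 and 10.1 in MHCC-97H and by 8.28 and 5.93 in MHCC-97L, where CKB differed by 7.91 and 7.57. STRC, which overlaps CKMT1B on the opposite strand, was at most 0.27 FPKM in any library.

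The muscle-type kinases stayed low. CKMT2, the sarcomeric mitochondrial kinase, was at 0.69 and 0.64 FPKM in MHCC-97H Flag-OGT, against 0.23 and 0.24 FPKM in MHCC-97H controls, and at 1.41 and 1.56 FPKM in MHCC-97L Flag-OGT, against 0.39 and 0.36 FPKM in MHCC-97L controls. These groups did not overlap, and the log2 differences were 0.43 ± 0.07 and 0.85 ± 0.07; with a pseudocount of 0.1 they were 1.19 and 1.74, and with quantile normalization that in MHCC-97H was 0.15. An antisense gene, CKMT2-AS1, overlaps CKMT2. CKM was at 0.06 and 0.19 FPKM in MHCC-97H Flag-OGT and 0.0 and 0.22 FPKM in MHCC-97L Flag-OGT, against 0.0 and 0.03 FPKM in MHCC-97H controls and 0.15 and 0.04 FPKM in MHCC-97L controls. It was below the mean of 0.5 FPKM required for testing, and in MHCC-97L its groups overlapped. Markers of muscle, where CKM and CKMT2 are known to be abundant, were low too: 8 skeletal muscle markers summed to 0.96 to 1.07 FPKM in MHCC-97H Flag-OGT and 3.18 to 3.81 FPKM in MHCC-97L Flag-OGT, against 0.26 to 0.38 FPKM and 1.86 to 2.45 FPKM in the controls of the same lines. Single markers moved in different directions. ACTA1 was at 3.4 and 2.65 FPKM in MHCC-97L Flag-OGT, against 0.24 and 0.23 FPKM in MHCC-97L controls. MYOD1 was at 0.19 to 0.41 FPKM in the Flag-OGT libraries and listed at 0 in all controls. MB was at 0.05 FPKM in both MHCC-97L Flag-OGT libraries, against 2.21 and 1.59 FPKM in MHCC-97L controls. MYH2 and MYL1 were listed at 0 in all 8 libraries.

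Among 6 cardiac muscle markers, TNNI3 moved with the Flag-OGT label, at 6.63 and 6.33 FPKM in MHCC-97H Flag-OGT and 11.61 and 12.73 FPKM in MHCC-97L Flag-OGT, against at most 0.07 FPKM in any control library. TNNT2 was listed at 0 in the 4 Flag-OGT libraries, and the whole list summed to 6.60 to 6.83 FPKM and 13.76 to 14.27 FPKM with Flag-OGT in MHCC-97H and MHCC-97L, against 0.21 to 0.33 FPKM and 0.52 to 0.54 FPKM in their controls. The 6 neuronal markers with values, from a tissue known for CKB and ubiquitous mitochondrial kinase, summed to 15.88 to 17.34 FPKM in MHCC-97H Flag-OGT, against 147.0 to 173.2 FPKM in MHCC-97H controls, and to 27.89 to 32.09 FPKM in MHCC-97L Flag-OGT, against 54.54 to 57.53 FPKM in MHCC-97L controls. The control sums were mostly TUBB3. SYP and RBFOX3 were instead higher with Flag-OGT, with SYP at 7.87 and 7.53 FPKM in MHCC-97H Flag-OGT, against 0.46 and 0.37 FPKM in MHCC-97H controls. INA was at most 0.09 FPKM in any library, and 5 astrocyte markers summed to at most 0.5 FPKM. Other lists were carried by single genes. Among 5 leukocyte markers, CD68 was at most 2.38 FPKM in any Flag-OGT library, against 79.8 and 77.47 FPKM in MHCC-97H controls and 63.72 and 63.43 FPKM in MHCC-97L controls, where it made most of the sum, while LYZ was higher with Flag-OGT in MHCC-97L. Of 5 fibroblast markers, ACTA2 and COL1A1 were higher with Flag-OGT, and LUM and DCN lower. The 5 endothelial markers summed to at most 1.57 FPKM with Flag-OGT, against at least 33.46 FPKM in controls, mostly ESAM. The 4 kidney proximal tubule markers with values, from the tissue best known for GATM, summed to 2.57 to 2.69 FPKM in MHCC-97H Flag-OGT, against 1.22 to 1.38 FPKM in MHCC-97H controls, and to 1.81 to 1.84 FPKM in MHCC-97L Flag-OGT, against 0.56 to 0.7 FPKM in MHCC-97L controls. LRP2 was at 1.79 and 1.84 FPKM in MHCC-97H Flag-OGT and listed at 0 in all controls, while AQP1 was lower with Flag-OGT in MHCC-97H and higher in MHCC-97L. The part of other cell types in these levels was not tested.

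Summed over the 5 creatine kinase genes, the level was 1634 and 1610 FPKM in MHCC-97H Flag-OGT and 1642 and 1561 FPKM in MHCC-97L Flag-OGT, against 6.15 and 6.43 FPKM in MHCC-97H controls and 9.04 and 9.77 FPKM in MHCC-97L controls. CKB held most of this in every library: 89.4% and 89.0% in MHCC-97H Flag-OGT and 92% and 91.9% in MHCC-97L Flag-OGT, against 95.1% and 93.6% in MHCC-97H controls and 79.6% and 83.3% in MHCC-97L controls. CKMT1A and CKMT1B together held 10.6% and 10.9% in MHCC-97H Flag-OGT and 7.92% and 8.01% in MHCC-97L Flag-OGT, against 1.14% and 2.18% in MHCC-97H controls and 14.4% and 12.6% in MHCC-97L controls. The share of this pair was thus higher with Flag-OGT in MHCC-97H and lower with it in MHCC-97L, while the summed kinase level was higher with Flag-OGT in both lines. This share also depends on how reads that match both genes were counted, which is not known. In MHCC-97H controls the pair's share rests on CKMT1A at 0.07 and 0.14 FPKM, with CKMT1B listed at 0. CKMT2, also mitochondrial, held 3.74% and 3.73% in those libraries.

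**Figure D2:**
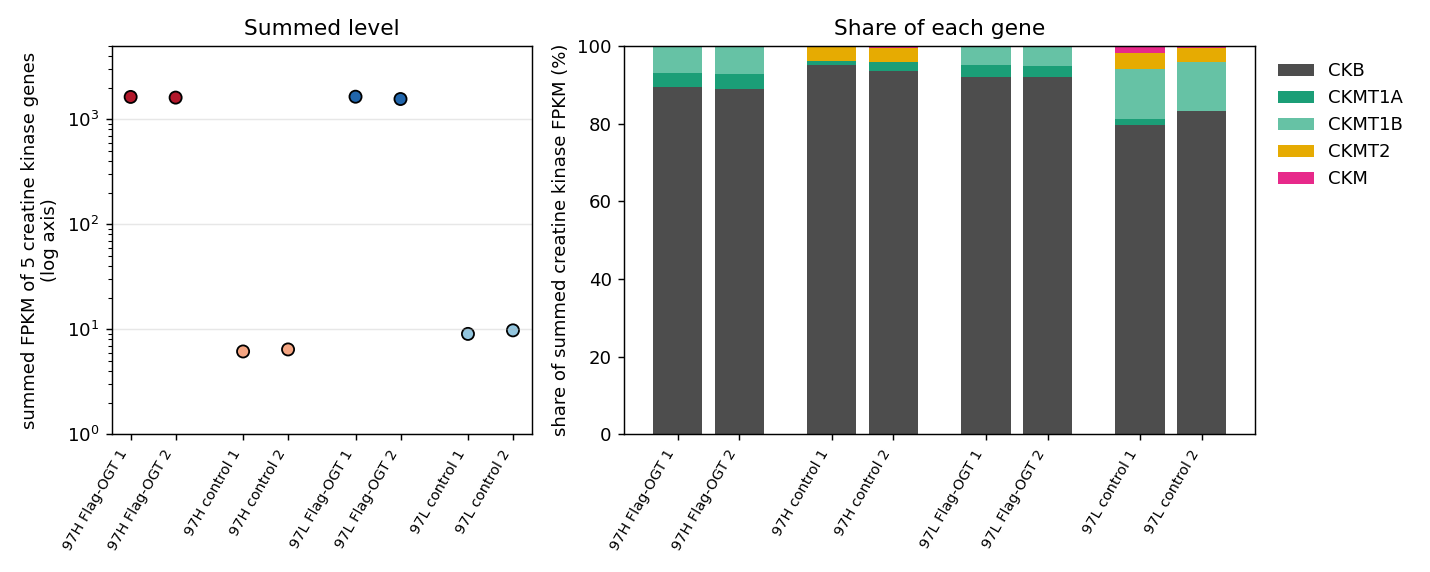
Left, summed FPKM of CKB, CKM, CKMT1A, CKMT1B and CKMT2 in each library (log axis); right, the share of each gene in that sum, in percent. Bars and points are single libraries of MHCC-97H and MHCC-97L. The sum lies between 1561 and 1642 FPKM in the Flag-OGT libraries, against 6.15 to 9.77 FPKM in controls, and CKB holds at least 79.6% everywhere.

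Counted over the 8 genes, 6, CKM included, were higher and 2 lower in MHCC-97H Flag-OGT than in its controls with no overlap of libraries, where 46.0% of all genes were higher and 32.9% lower in that sense. In MHCC-97L, 4 were higher, 3 lower and 1 overlapped, where 47.2% of all genes were higher and 33.0% lower. Nothing is read from these counts, since this contrast led to the choice of the genes. The median tested gene differed by 0.15 in MHCC-97H and by 0.19 in MHCC-97L, and by -0.01 and 0.02 with median-of-ratios scaling. Under that scaling the 7 tested creatine genes kept their directions in both lines, among them CKB (7.53 and 7.20), GAMT (0.88 in MHCC-97H and -1.0 in MHCC-97L) and SLC6A8 (-1.23 and -1.18).

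The lines were then compared without Flag-OGT, a contrast that did not lead to the choice of the genes. In controls, 5 of the 7 tested creatine genes were lower in MHCC-97H than in MHCC-97L and 0 were higher at an adjusted p under 0.05 (limma, Benjamini-Hochberg over 13553 genes), where 65.4% of tested genes were called, 26.5% higher and 38.9% lower. Under other scalings that background split turned, to 34.6% higher and 31.2% lower with rescaling to a common sum and 36.6% and 30.2% with median-of-ratios, while the creatine genes called, 4 in each, were all lower. With quantile normalization 1 was higher and 4 lower, as CKMT1A was then called (0.22, limma adjusted p = 0.050). GATM was at 0.96 and 1.36 FPKM in MHCC-97H, against 18.01 and 18.13 FPKM in MHCC-97L, 0.0642 times the level (log2 -3.15 ± 0.09). It passed the filter on low values only through MHCC-97L controls, so its call is no support for the count. With no filter its limma adjusted p was 3.5e-06. GAMT fell to 20.57 and 16.0 FPKM in MHCC-97H, against 38.44 and 41.08 FPKM in MHCC-97L (log2 -1.09 ± 0.10, limma adjusted p = 9.3e-06). Both enzymes of synthesis were therefore lower in MHCC-97H controls, and this held in each alternative run. CKMT1B (log2 -1.13 ± 0.06, limma adjusted p = 2.2e-07, and -3.69 with a pseudocount of 0.1), CKB (-0.32 ± 0.06, adjusted p = 1.1e-03, and -0.20 and -0.19 with rescaling to a common sum and median-of-ratios) and SLC6A8 (-0.21 ± 0.06, adjusted p = 9.2e-03) were also lower. The sum of CKMT1A and CKMT1B was lower too (log2 -1.04 ± 0.06, limma adjusted p = 5.0e-07). CKMT1A (0.04 ± 0.08, limma adjusted p = 0.68) and CKMT2 (-0.15 ± 0.07, limma adjusted p = 0.068) were not called. The SLC6A8 call was lost with rescaling to a common sum (-0.08), median-of-ratios (-0.06) or quantile scaling (-0.11), and without MHCC-97L control replicate 1 (-0.19, limma adjusted p = 0.065). The CKMT2 difference was called lower with a pseudocount of 0.1 (-0.50, limma adjusted p = 0.014), no filter (0.026), no trend (0.046), a fit of these groups alone (0.013) and without MHCC-97L Flag-OGT replicate 1 (0.049) or 2 (0.048), and it was 0.10 with quantile normalization (limma adjusted p = 0.19).

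Within the Flag-OGT libraries the line difference had another shape. Of the 7 tested genes, 3 were higher and 2 lower in MHCC-97H Flag-OGT than in MHCC-97L Flag-OGT, where 69.7% of tested genes were called, 33.6% higher and 36.1% lower. That background split was 43.8% higher and 26.1% lower with rescaling to a common sum and 41.9% and 27.6% with median-of-ratios. GAMT was higher, at 40.8 and 37.93 FPKM in MHCC-97H Flag-OGT, against 21.86 and 23.01 FPKM in MHCC-97L Flag-OGT (log2 0.78 ± 0.10, limma adjusted p = 6.9e-05). CKMT1B (0.53 ± 0.06, limma adjusted p = 2.7e-05) and CKMT1A (0.30 ± 0.08, limma adjusted p = 9.6e-03) were higher, and their sum by 0.45 ± 0.06 (limma adjusted p = 1.1e-04). SLC6A8 was lower (-0.27 ± 0.06, limma adjusted p = 2.1e-03). CKMT2 was also called lower, at -0.58 ± 0.07 and at -1.05 with a pseudocount of 0.1, but it passed the filter only through MHCC-97L Flag-OGT, so this call is no support for the count; with no filter its limma adjusted p was 8.6e-05. CKB (-0.02 ± 0.06, limma adjusted p = 0.74) and GATM (-0.04 ± 0.09, limma adjusted p = 0.70) were not called, and GATM was too low in both groups for a difference to show on this scale. The split of calls shifted to 4 higher and 1 lower with rescaling to a common sum, where CKB was higher (0.17, limma adjusted p = 0.024), and to 3 higher and 1 lower with median-of-ratios scaling. With quantile normalization it was 4 higher and 2 lower, CKB again included (0.34, limma adjusted p = 1.0e-03). SLC6A8 was not called with a common sum (-0.08) or median-of-ratios (-0.11). The CKMT1A call was lost with a pseudocount of 0.1 (0.30, limma adjusted p = 0.47), where 2 genes were higher and 2 lower, and without MHCC-97H Flag-OGT replicate 2 (0.25, limma adjusted p = 0.086) or MHCC-97L Flag-OGT replicate 2 (0.26, limma adjusted p = 0.064).

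**Figure D3:**
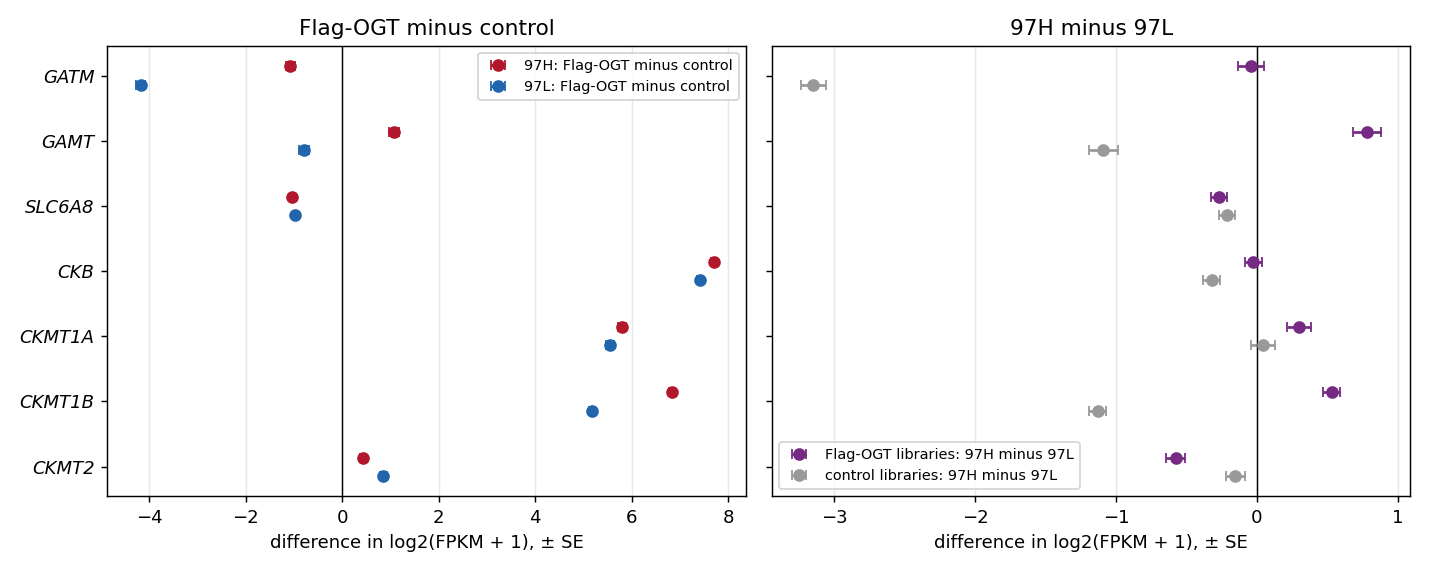
Differences in log2(FPKM + 1), with standard errors from limma, of the 7 creatine genes that passed the filter on low values. Left, Flag-OGT minus control libraries in MHCC-97H and MHCC-97L, given as a description; right, MHCC-97H minus MHCC-97L in the Flag-OGT libraries and in controls. GATM lies at -3.15 between the control groups and at -0.04 between the Flag-OGT groups, and GAMT changes side.

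Whether the Flag-OGT difference itself differed between lines was tested as an interaction, in which 63.3% of tested genes were called, 33.9% positive and 29.4% negative. It was called for 5 of the 7 creatine genes, 4 positive and 1 negative. GATM passed the filter only through MHCC-97L controls and CKMT2 only through MHCC-97L Flag-OGT, so their calls are no support for the count. GAMT had the pattern of opposite directions (1.87 ± 0.14, limma adjusted p = 3.5e-06), higher with Flag-OGT in 2 of 2 MHCC-97H libraries and lower in 2 of 2 MHCC-97L libraries. The GATM term of 3.11 ± 0.13 (limma adjusted p = 1.6e-05 with no filter) goes with its control levels, as GATM was at most 0.06 FPKM in each Flag-OGT library. CKMT1B differed by 1.66 ± 0.08 (limma adjusted p = 2.8e-07, and 4.22 with a pseudocount of 0.1), the sum of CKMT1A and CKMT1B by 1.48 ± 0.09 (limma adjusted p = 6.6e-07), CKMT2 by -0.42 ± 0.10 (limma adjusted p = 1.9e-03 with no filter) and CKB by 0.30 ± 0.09 (limma adjusted p = 0.013, and 0.61 with quantile normalization). SLC6A8 (-0.06 ± 0.08, limma adjusted p = 0.55) and CKMT1A (0.26 ± 0.12, limma adjusted p = 0.085) were not called. The CKB call was lost without MHCC-97L control replicate 2 (0.22, limma adjusted p = 0.056), MHCC-97H Flag-OGT replicate 1 (0.28, limma adjusted p = 0.055) or MHCC-97L Flag-OGT replicate 2 (0.26, limma adjusted p = 0.052). CKMT1A was called without MHCC-97L control replicate 2 (0.36, limma adjusted p = 0.030) and with rescaling to a common sum (0.44) or median-of-ratios scaling (0.40), and its term was -0.05 with a pseudocount of 0.1 (limma adjusted p = 0.94).

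Around these genes, 78 others in 6 lists cover the supply of precursors, neighbouring phosphate transfer, carriers and proposed regulators; 77 had values and 63 were tested. Of the 63, 5 passed the filter only through Flag-OGT libraries and 1 only through controls, so they had to differ, and the counts below are a description. Of these, 41 rose and 13 fell with Flag-OGT in MHCC-97H, where 84.6% of all tested genes were called, 48.2% upward and 36.3% downward (limma, adjusted p under 0.05), and their median was 0.36 beside 0.15 for all genes. In MHCC-97L, 42 rose and 12 fell, where 84.8% of all tested genes were called, 50.1% upward and 34.7% downward, with a median of 0.53 beside 0.19. With median-of-ratios scaling the split in MHCC-97H was 35 upward and 16 downward, where 41.9% of all tested genes rose and 42.7% fell. In MHCC-97L it was 39 upward and 19 downward, where 42.6% of all tested genes rose and 41.7% fell.

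The list of arginine and glycine supply had the highest median of the 6 lists in MHCC-97H. In MHCC-97H 11 of 15 tested genes rose and 3 fell (median 1.47), and in MHCC-97L 13 rose and 1 fell (median 0.76). Beside these stand 48.2% upward and 36.3% downward among all tested genes in MHCC-97H, and 50.1% and 34.7% in MHCC-97L. PHGDH, the entry enzyme of serine and hence glycine synthesis, and ASS1, which makes argininosuccinate on the way to arginine, rose in both lines, and in MHCC-97H they rose most of the list. ASS1 was at 185.24 and 184.41 FPKM in MHCC-97H Flag-OGT, against 1.38 and 1.26 FPKM in MHCC-97H controls, and at 62.21 and 63.97 FPKM in MHCC-97L Flag-OGT, against 18.26 and 19.8 FPKM in MHCC-97L controls. PHGDH averaged 648 ± 4.45 and 393 ± 18.6 FPKM with Flag-OGT in MHCC-97H and MHCC-97L, against 1.02 ± 0.0566 and 39.5 ± 1.23 FPKM in their controls (SD, n = 2 each). ASL, which releases arginine from argininosuccinate, was the gene of the list that fell in both lines, by 0.83 and 1.47 on the log2 scale (limma adjusted p = 1.6e-05 and 1.7e-07). The list also holds enzymes that break down arginine or glycine. Among them, ARG2 (log2 2.49 and 2.67) and GLDC (3.06 and 0.76) rose in both lines. GLDC averaged 0.04 and 0.275 FPKM in MHCC-97H and MHCC-97L controls. It passed the filter only through the Flag-OGT libraries, so it had to differ. The counts of a list with such enzymes do not measure the supply of substrates to GATM. GATM was itself at most 0.06 FPKM in the Flag-OGT libraries.

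In the methionine and S-adenosylmethionine cycle, which supplies the methyl group that GAMT uses, 9 of 12 tested genes rose and 3 fell in MHCC-97H (median 0.33), and 7 rose and 3 fell in MHCC-97L (median 0.24). CBS, which draws homocysteine into cysteine synthesis, rose to 119.5 and 119.61 FPKM in MHCC-97H Flag-OGT, against 4.62 and 4.94 FPKM in MHCC-97H controls, and to 81.26 and 78.5 FPKM in MHCC-97L Flag-OGT, against 15.53 and 14.82 FPKM in MHCC-97L controls. MTR, the methionine synthase, also rose in both (log2 1.76 and 1.44, limma adjusted p = 2.4e-09 and 1.3e-08). BHMT2, a methyltransferase that remakes methionine, fell by 2.81 and 3.04 on the log2 scale (limma adjusted p = 1.5e-10 and 1.0e-10). MAT2A, which makes S-adenosylmethionine outside the adult liver, fell by 0.27 and 1.14 (limma adjusted p = 1.8e-03 and 3.4e-08).

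Other phosphate-transferring kinases were more often higher than lower as well. Of 16 tested, 11 rose and 3 fell in MHCC-97H (median 0.41), and 12 rose and 2 fell in MHCC-97L (median 0.77). The mitochondrial adenylate kinase AK4 rose to 14.36 and 14.43 FPKM in MHCC-97H Flag-OGT, against 0.21 and 0.19 FPKM in MHCC-97H controls, and to 7.47 and 8.71 FPKM in MHCC-97L Flag-OGT, against 2.5 and 2.32 FPKM in MHCC-97L controls. The nucleoside diphosphate kinase gene NME3 rose by 2.49 and 1.62 on the log2 scale (limma adjusted p = 2.1e-09 and 6.7e-08). CMPK1, the cytosolic UMP/CMP kinase, fell by 1.38 and 1.12 (limma adjusted p = 3.6e-08 and 2.1e-07).

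Mitochondrial adenine nucleotide and phosphate carriers and porins, through which the mitochondrial creatine kinases exchange ATP and ADP, were mixed: of 8 tested, 4 rose in each line, while 1 fell in MHCC-97H and 2 in MHCC-97L. Their medians were 0.14 and 0.49. All tested genes rose in 48.2% and fell in 36.3% of cases in MHCC-97H, and in 50.1% and 34.7% in MHCC-97L. The ADP/ATP carriers went opposite ways. SLC25A6 rose to 843.92 and 793.95 FPKM in MHCC-97H Flag-OGT, against 238.09 and 242.63 FPKM in MHCC-97H controls, and to 572.94 and 540.52 FPKM in MHCC-97L Flag-OGT, against 243.01 and 244.42 FPKM in MHCC-97L controls. SLC25A5 fell to 364.95 and 363.32 FPKM in MHCC-97H Flag-OGT, against 647.32 and 670.1 FPKM in MHCC-97H controls, and to 208.42 and 204.14 FPKM in MHCC-97L Flag-OGT, against 431.95 and 415.24 FPKM in MHCC-97L controls. These carriers are close paralogs, so reads may be shared. SLC25A24, a calcium-dependent ATP-Mg/phosphate carrier that passed the filter only through the Flag-OGT libraries, was at 6.5 and 5.84 FPKM in MHCC-97H Flag-OGT and at 1.41 and 1.68 FPKM in MHCC-97L Flag-OGT, against 0.0 and 0.02 FPKM in the controls of either line.

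Of 8 relatives of SLC6A8 and other creatine carriers only 3 were tested. SLC6A11, a GABA transporter that passed the filter only through the Flag-OGT libraries, was at 4.95 and 4.97 FPKM in MHCC-97H Flag-OGT, against 0.04 and 0.06 FPKM in MHCC-97H controls, and at 2.97 and 3.27 FPKM in MHCC-97L Flag-OGT, against 0.09 and 0.1 FPKM in MHCC-97L controls. SLC6A6, a taurine importer of the same family as SLC6A8, fell by 1.83 and 1.23 (limma adjusted p = 8.9e-10 and 2.2e-08). SLC16A12, a carrier reported to move creatine, averaged 0.16 and 0.295 FPKM in MHCC-97H and MHCC-97L Flag-OGT, against 0.075 and 0.23 FPKM in their controls, and was not tested. Among proposed regulators, 5 of 9 tested rose and 2 fell in each line. The shares of all tested genes were 48.2% upward and 36.3% downward in MHCC-97H, and 50.1% and 34.7% in MHCC-97L. PPARGC1B, a coactivator of estrogen-related receptors, rose by 1.52 and 1.04, and ESRRA, one of those receptors, fell by 0.97 and 1.2 (limma adjusted p = 3.0e-07 and 6.3e-08).

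**Figure D4:**
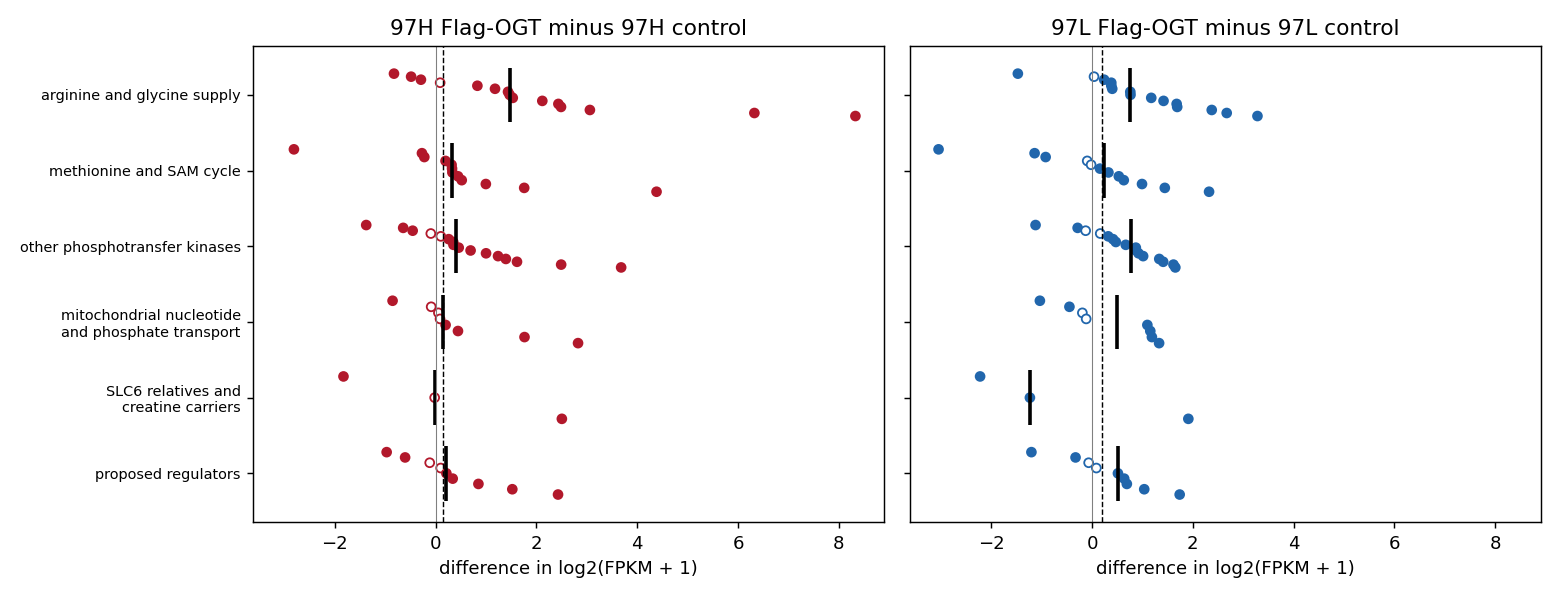
Differences in log2(FPKM + 1) between Flag-OGT and control libraries for the tested genes of 6 lists, in MHCC-97H (left) and MHCC-97L (right). Each circle is a gene, filled where limma called it (adjusted p under 0.05); thick bars are list medians and the dashed line is the median of all tested genes (0.15 and 0.19). The median of arginine and glycine supply lies at 1.47 and 0.76.

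The genes most like each creatine gene were found by the distance between log2(FPKM + 1) values over the 8 libraries, each gene centred on its own mean. Nearest to CKB were DMKN (distance 0.42), YBX3 (0.533) and CITED1 (0.852). Nearest to CKMT1A were UNCX (0.373), GAL (0.417) and H2AFY2 (0.452), and to CKMT1B ISYNA1 (0.704), ANXA6 (0.987) and TBX1 (1.03). GATM was nearest to BAAT (0.455), which encodes a bile acid conjugating enzyme of hepatocytes and averaged 0.07 and 0.295 FPKM in MHCC-97H and MHCC-97L Flag-OGT, against 1.07 and 16.8 FPKM in their controls; SLPI (0.471) and CCL15 (0.617) followed. BCAM (0.155), GALK1 (0.376) and SEZ6L2 (0.407) shared the crossed pattern of GAMT, and BCAM averaged 17.23 and 9.94 FPKM in MHCC-97H and MHCC-97L Flag-OGT, against 7.89 and 16.77 FPKM in their controls. KCNMB3 (0.135), RNF113A (0.151) and ORAI2 (0.178) were nearest to SLC6A8, and ZMYND19 (0.131), HOOK3 (0.145) and LSM10 (0.147) to CKMT2. With 8 libraries in 4 groups, such likeness describes levels alone.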

How the data were processed

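Gene-level FPKM values were deposited by the authors as 1 table, with 1 column per library and 2 decimals. Per the submitters' processing notes, Bowtie2, HISAT2 2.1.0, RSEM 1.2.4, DESeq2 1.18.1 and hg19 were used; the tool behind the FPKM is not stated there. Per the labels' protocols, libraries were made from Trizol-extracted total RNA with a SMARTer kit. Read depth is unknown, so no counting intervals are given. Summed FPKM per library ran from 510449 to 613101. Of 18928 features, 26 whose symbols had become dates were left out. Genes with a mean of at least 0.5 FPKM over all libraries (13553) were tested. CKMT1A passed only through the Flag-OGT libraries, CKMT2 only through those of MHCC-97L, and GATM only through MHCC-97L controls.

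In limma 3.58.1 (R 4.3.3), 1 model with a mean for each of the 4 groups was fitted to log2(FPKM + 1), using the trended prior variance; 4 residual degrees of freedom remained. Calls were made at a Benjamini-Hochberg adjusted p under 0.05, taken over every tested gene. The procedure was tested on simulated data with changes in few genes and 1 contrast. Many more genes were called here, so that test does not cover this setting. Tables and figures used Python 3.11.15, pandas 2.3.3 and matplotlib 3.10.9. Named pathway genes were up to 2 at either end of each list, called in the same direction in both lines without overlap of libraries. A gene that meets this rule is not reported here, though it stays in its list's counts. The members, lists and tests were chosen with earlier results of these data known. Alternatives were other pseudocounts, filters and scalings, no trend, 2-group fits, leaving out single libraries, a replicate block, and summing CKMT1A and CKMT1B.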

Additional observations from a re-analysis of the deposited data

Results flagged for a closer look

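For these genes the Flag-OGT difference itself differed between MHCC-97H and MHCC-97L by the interaction term (MHCC-97H minus MHCC-97L, log2 scale, limma adjusted p under 0.05), as it did for 63.3% of all tested genes. Among creatine genes the terms were 3.11 for GATM, 1.87 for GAMT, 1.66 for CKMT1B, 0.30 for CKB and -0.42 for CKMT2. GAMT alone of these had opposite directions in the lines, higher with Flag-OGT in MHCC-97H and lower in MHCC-97L. GATM passed the filter on low values only through MHCC-97L controls and CKMT2 only through MHCC-97L Flag-OGT, so their calls are no support. OGT, the introduced gene, had a term of 0.57. Among the 17 named pathway genes, 14 were called. These were named by the size of their Flag-OGT differences in the same data, so nothing is read from that count. The terms for precursor supply were 5.05 for PHGDH, 4.65 for ASS1 and 0.65 for ASL. Those of the methionine cycle were 2.06 for CBS, 0.31 for MTR and 0.87 for MAT2A. Among kinases and carriers they were 2.27 for AK4, 0.87 for NME3, 1.5 for SLC25A24, 0.58 for SLC25A6, 0.18 for SLC25A5, 0.59 for SLC6A11 and -0.60 for SLC6A6. PPARGC1B had 0.49. PHGDH was at 648 FPKM in MHCC-97H Flag-OGT and 393 FPKM in MHCC-97L Flag-OGT, against 1.02 FPKM in MHCC-97H controls and 39.5 FPKM in MHCC-97L controls.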

How the results depend on the processing

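Each count of called creatine or pathway genes stayed within 1.5 times its value under every alternative run. Called creatine genes numbered 5 of 7 in each tested contrast, and 4 to 6 across alternatives. Of all tested genes, 65.4% were called between control groups, 69.7% between Flag-OGT groups and 63.3% in the interaction. Called pathway genes numbered 54 of 63 in either line, where 84.6% and 84.8% of all tested genes were called. The range was 46 to 61 in MHCC-97H and 46 to 64 in MHCC-97L. Its ends came from other filters, with 53 tested at a mean of at least 2 FPKM and 76 with no filter. With each library left out in turn, the counts were 4 to 6 between control groups, 4 to 5 between Flag-OGT groups, 4 to 5 for the interaction, and 50 to 55 and 52 to 55 for pathway genes. CKB between the Flag-OGT groups turned its direction, to 0.17 with rescaling to a common sum and 0.34 with quantile normalization, both called, and to 0.14 with median-of-ratios scaling, not called. Of the creatine gene values not called either way, the sign also turned for CKMT2 between control groups (0.10 with quantile normalization), CKMT1A between control groups (-0.06 without MHCC-97L control replicate 2) and the CKMT1A interaction (-0.05 with a pseudocount of 0.1), among values near 0. Same-numbered libraries did not deviate together (r of -0.206 to 0.309 over the 6 pairs of groups), so the numbers are not taken as pairs; the replicate block gave 5 creatine genes in each contrast and 54 pathway genes in each line. Unknown depth and the 2-decimal rounding limit statements on CKM, CKMT2 and on GATM with Flag-OGT.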
